A study of Ovis aries with 36 samples.

Results

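The longissimus lumborum (LL) was compared with the psoas major (PM), the dorsal and the ventral muscle of the loin, in 4 lambs. The samples were those whose labels name either muscle, 8 of the 36 samples of the series, and each LL sample was set against the PM sample of the same animal. The lambs were unrelated male Poll Dorset cross-breds, 14 months old and of 67 to 72 kg live weight, that had been raised on grassland and given soy crop and sorghum grain after weaning. No treatment was given to either muscle, so muscle was the sole factor within an animal. Samples came from the middle of the superficial belly of each muscle shortly after slaughter. The same lambs also gave 7 further muscles, which were adductor (AD), rectus femoris (RF), gluteobiceps (GB), supraspinatus (SS), gluteus medius (GM), semitendinosus (ST) and semimembranosus (SM).

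Skeletal muscle is built from slow fibres, which contract slowly, resist fatigue and rely on oxidative metabolism, and from fast fibres, which contract quickly and draw more on glycogen. Slow fibres use their own isoforms of the myosin light chains, of the troponin subunits C, T and I, of tropomyosin and of the calcium pump of the sarcoplasmic reticulum, many of which are shared with the heart. The longissimus extends the back, and the psoas major flexes the hip and steadies the lumbar spine. Each sample was whole tissue, in which more slow fibres and more RNA per slow fibre cannot be told apart.

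The values are the numbers of reads per assembled locus in RNA-Seq libraries. The 4 LL samples held 5317026 to 6378073 counts and the 4 PM samples 4118178 to 6209124. Between 67.7% and 70.5% of the counts of a sample came from 4 short unannotated loci, none of which differed between LL and PM (lowest FDR = 0.903), and 1214226 to 1920159 counts per sample were left for all other loci. A locus with 3 counts, taken as the smallest number that can be told from 0, corresponds to 0.428 to 0.669 CPM, the count scaled to a common library size, in these 8 samples, and this floor covers counting error only. Of 31136 loci, 12461 had enough counts to be tested, 3168 of them without an Ensembl gene. In what follows log2FC is LL minus PM, so that a negative value means higher in PM. The error given with it is the SE of the 4 within-animal differences, and FDR is the adjusted p of edgeR's quasi-likelihood test.

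A total of 58 loci were differentially expressed between LL and PM (FDR of at most 0.01 and absolute log2FC above 1), which is 0.465% of the tested loci. Most of them, 46, were higher in PM (0.369%) and 12 were higher in LL (0.0963%). The values of log2FC ran from -3.37 to -1.02 among the former, with a median of -1.82, and from 1.05 to 2.93 among the latter, with a median of 1.80. Across all tested loci the median log2FC was 0.0101. Each of the 58 loci had the same direction in the 4 animals, as did 17.7% of all tested loci. The 4 LL and 4 PM samples did not overlap in 52 of the 58, 40 with PM higher and 12 with LL higher, against 3.65%, 1.88% and 1.77% of the tested loci. These shares describe loci selected in the same contrast. At an FDR of at most 0.01 without a limit on the fold change 69 loci passed (0.554%), 53 of them higher in PM (0.425%). Among the 36 pairs of muscles LL and PM ranked 21st by the number of differentially expressed loci, with 20 pairs above it, 15 below and a median of 61. The number called fell to 26 when animal 4 was left out of the fit, 22 higher in PM and 4 higher in LL, and to 27 without the animal term. Without animal 2 the number higher in LL was 7. Leaving out each animal in turn, 21 of the 58 were called in all 4 fits, 18 of the 46 higher in PM and 3 of the 12 higher in LL.

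**Figure D1:**
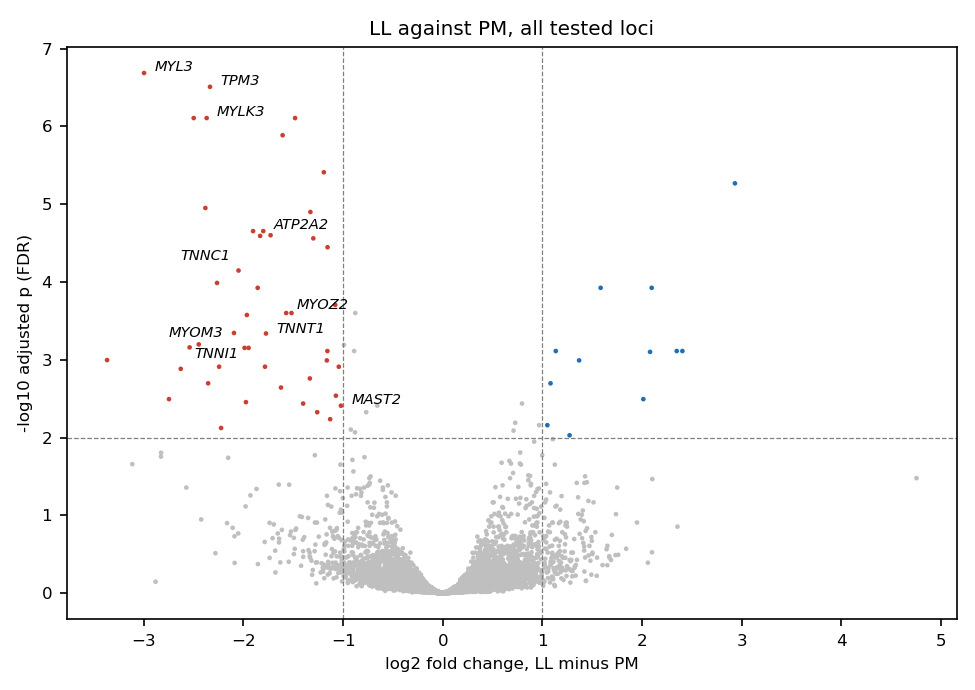
Log2 fold change of LL minus PM (x axis) against -log10 of the FDR (y axis) for the 12461 tested loci, one point per locus. Dashed lines mark an FDR of 0.01 and an absolute log2FC of 1. The 46 loci higher in PM are red, the 12 higher in LL are blue, all other loci are grey, and the 10 genes with a name that were called all lie on the PM side.

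Of the slow fibre genes that could be named, most were higher in PM. The count tables carry no gene symbols, so a name could be given only to loci whose span in the tables covers or overlaps a position that the study lists for a named gene. The spans printed here are those of the tables, which are often wider than the listed positions. Of 21 slow fibre genes on a list, 9 could be paired with a tested locus, and 8 of these 9 were higher in PM, as were 0.369% of all tested loci, with a median log2FC of -1.95 over the 9 against 0.0101 over all tested loci. The study printed positions for genes that it had found to differ among these same muscles, so this count is not independent evidence of a direction. It was 5 when animal 1 was left out. CASQ2 was the exception, and loci that could not be given a single name, at MYBPC1 and MYH7B, did not pass either. The 8 genes belong to thick filaments, thin filaments, the calcium store, the Z-disc and the M-band.

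MYL3, the essential myosin light chain of slow and ventricular muscle (chr19:52560400-52569198, as for all positions on Oar_v3.1), had the smallest p of all loci. It measured 20.9, 21.6, 34 and 18.2 CPM in LL1 to LL4 and 182, 192, 206 and 158 CPM in PM1 to PM4. The 4 PM samples lay close together and far above the highest LL sample, LL3. MYL3 was 7.99-fold higher in PM (log2FC -3.00 ± 0.13, FDR = 2.06e-07), with a within-animal difference of -3.13 to -2.59 in log2 CPM. For the regulatory light chain of slow fibres, MYL2, a pair of annotated loci have the same span in the tables, which covers the adjacent positions that the study lists for MYL2 and for CCDC63, and neither name can be given to either (chr17:54257918-54303146). One of them measured 23, 51.3, 22.5 and 15.7 CPM in LL and 111, 148, 117 and 158 CPM in PM (log2FC -2.27 ± 0.36, FDR = 0.000103). The other measured 7.33, 7.84, 9.05 and 3.49 CPM in LL and 32.6, 46.6, 38 and 37.3 CPM in PM (log2FC -2.50 ± 0.29, FDR = 7.82e-07). Both loci were higher in PM without overlap, and LL4 was the lowest sample in each.

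MYLK3, a kinase of the regulatory light chain known from the heart (chr14:14547940-14606419), was 5.17-fold higher in PM. Its levels were 4.82, 14.6, 8.2 and 4.92 CPM in LL and 44.8, 53.2, 28.5 and 33.8 CPM in PM (log2FC -2.37 ± 0.33, FDR = 7.82e-07). LL2 was the highest of the LL samples and still lay below PM3, the lowest of the PM samples. The name rests on the listed end of the gene, since the listed start lies far outside this locus. An unannotated locus with the same coordinates as MYLK3 held 1, 4, 6 and 4 counts in LL1 to LL4 and 22, 22, 8 and 34 counts in PM1 to PM4 (log2FC -2.54 ± 0.58, FDR = 0.000694). The strand setting of the read counting is not given in the sources used here, so reads of the overlapping loci may not be separable. Leaving out animal 1, 2 or 4 raised the FDR of the unannotated locus to 0.0122, 0.0194 and 0.0429.

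The thin filament gene TPM3 was higher in PM as well. TPM3, the slow isoform of tropomyosin (chr1:103039221-103067829), measured 40.9, 49.3, 49.4 and 25.7 CPM in LL and 178, 193, 284 and 213 CPM in PM (log2FC -2.34 ± 0.24, FDR = 3.1e-07). The unannotated locus at the coordinates of TPM3, subject to the same limit on strand, measured 5.72, 14.6, 6.83 and 8.88 CPM in LL and 38.1, 44.3, 50.1 and 53.8 CPM in PM (log2FC -2.38 ± 0.28, FDR = 1.12e-05). LL4 was the lowest LL sample for TPM3 but not for the unannotated locus, where LL1 was lowest.

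The troponin genes of slow fibres covered each subunit of the complex. TNNC1, the calcium-binding subunit (chr19:48403558-48406316), measured 52.7, 141, 89.2 and 34.4 CPM in LL and 229, 372, 418 and 293 CPM in PM (log2FC -2.05 ± 0.34, FDR = 7.13e-05). TNNT1, the subunit that binds tropomyosin (chr14:59547242-59556889), measured 68.1, 118, 81.1 and 27.3 CPM in LL and 244, 271, 274 and 231 CPM in PM (log2FC -1.77 ± 0.40, FDR = 0.00046). TNNI1, the inhibitory subunit (chr12:78585640-78596742), measured 10.4, 33.3, 16.2 and 6.51 CPM in LL and 56.4, 71.2, 72.8 and 56.5 CPM in PM (log2FC -1.95 ± 0.41, FDR = 0.000704). The groups did not overlap in any of the 3 genes, LL2 was the highest and LL4 the lowest LL sample in each, and the LL samples were spread over a wider fold range than the PM samples. TNNT1 and TNNI1 lost their call when animal 1 or animal 3 was left out, with an FDR of up to 0.0173 and 0.0293, while their log2FC stayed within -2.08 to -1.55 and -2.51 to -1.74 when animals were removed in turn.

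Of the 2 calcium store genes that could be paired, one was higher in PM and one did not pass. ATP2A2, the calcium pump of the sarcoplasmic reticulum in slow fibres and heart (chr17:53803321-53860163), measured 103, 200.4, 113 and 66.8 CPM in LL and 356, 531, 447 and 350.0 CPM in PM (log2FC -1.80 ± 0.20, FDR = 2.22e-05). CASQ2, the calsequestrin isoform of heart and slow muscle that holds calcium within the store (chr1:92170833-92243108), measured 6.79, 4.63, 4.61 and 6.03 CPM in LL and 8.7, 6.84, 4.54 and 8.28 CPM in PM (log2FC -0.36 ± 0.12, FDR = 0.725), and its groups overlapped.

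The remaining pair of slow fibre genes codes for proteins that anchor the sarcomere. MYOZ2, which links the Z-disc to calcineurin (chr6:6264895-6303407), measured 14.1, 8.73, 17.1 and 4.28 CPM in LL and 18.5, 23.2, 59.4 and 32.1 CPM in PM (log2FC -1.57 ± 0.50, FDR = 0.000251). MYOM3, a myomesin of the M-band (chr2:241688442-241741074), measured 4.82, 13, 8.2 and 2.54 CPM in LL and 60.4, 25.3, 21.5 and 19.4 CPM in PM (log2FC -2.10 ± 0.61, FDR = 0.000453). The highest LL sample of MYOZ2, LL3, was just below its lowest PM sample, PM1, while for MYOM3 PM1 stood well above PM2 to PM4. Without animal 1 the log2FC of MYOM3 was -1.53 and no longer passed (FDR = 0.0421), and it also missed the threshold without animal 4 (FDR = 0.0169). MYOZ2 missed it without animal 4 (FDR = 0.0134).

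**Figure D2:**
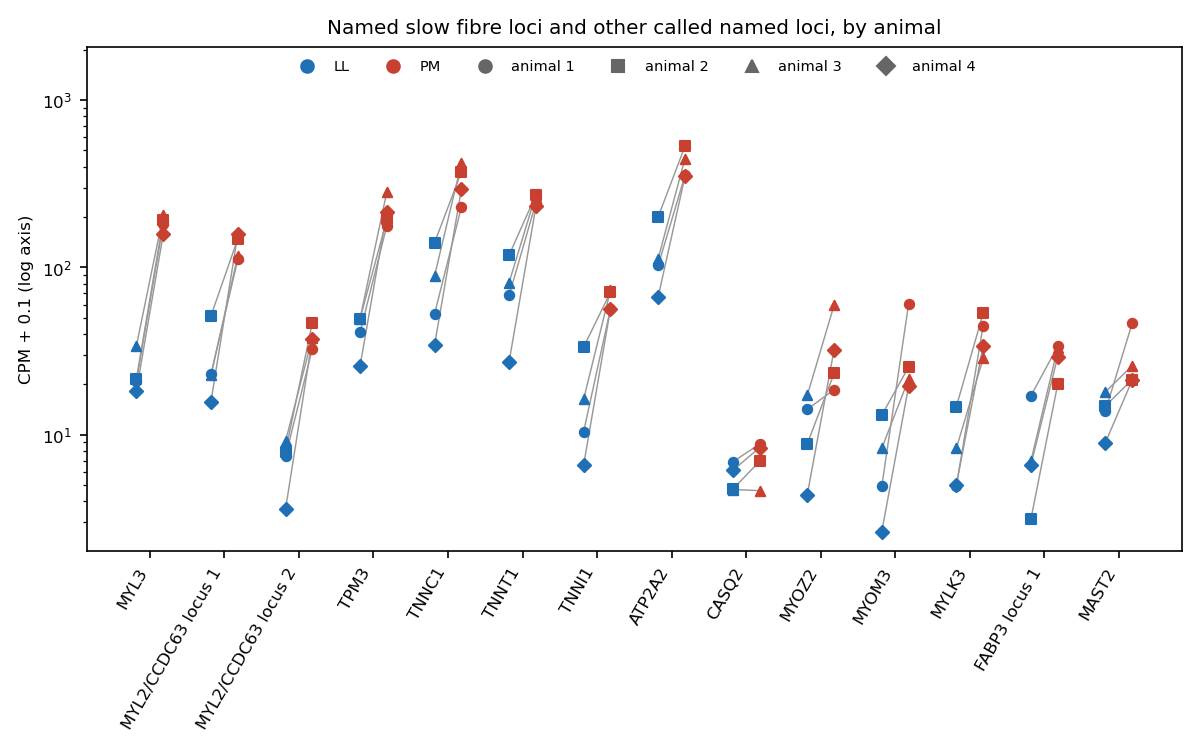
CPM plus 0.1 on a log axis for the slow fibre loci and other called loci with a name. Blue symbols are LL, red symbols are PM, the shape gives the animal and a grey line joins the samples of 1 animal. For each locus except CASQ2, the 4 PM samples lie above the 4 LL samples.

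Outside the contractile genes, 2 listed positions held loci that were higher in PM. The position listed for FABP3, the fatty acid binding protein of heart and oxidative muscle, falls within a span shared by a pair of annotated loci (chr2:235135327-235198261). The first measured 17, 3.03, 6.83 and 6.51 CPM in LL and 33.7, 19.9, 33 and 29.1 CPM in PM (log2FC -1.86 ± 0.35, FDR = 0.000119), and the second averaged 1.52 ± 0.573 CPM (SD, n = 4) in LL and 2.28 ± 0.242 CPM in PM (log2FC -0.57 ± 0.23, FDR = 0.628). One of the pair thus passed and the other did not. MAST2, a microtubule-associated serine/threonine kinase (chr1:20207686-20388444), measured 13.8, 14.8, 17.9 and 8.88 CPM in LL and 46.4, 21.3, 25.8 and 21.1 CPM in PM (log2FC -1.02 ± 0.30, FDR = 0.0039). PM1 was the highest sample of MAST2, and its call was lost without animal 1 (log2FC -0.72, FDR = 0.237) and without animal 4 (log2FC -0.96, FDR = 0.0744).

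Other genes of slow and fast fibres at listed positions did not pass. A locus that covers the position given for a transcript of MYBPC1, the slow isoform of myosin-binding protein C, averaged 677 ± 223 CPM in LL and 1107 ± 180.5 CPM in PM (log2FC -0.74 ± 0.13, FDR = 0.0333). The annotated loci whose shared span covers the position of MYH7B, a slow and cardiac myosin heavy chain, gave log2FC -1.35 ± 0.53, FDR = 0.108 for one and log2FC 0.10 ± 0.05, FDR = 0.919 for the other. PVALB, the calcium buffer of fast fibres and the single paired member of a list of 22 fast fibre genes, was at 1, 2, 0 and 0 counts in LL and 1, 2, 0 and 0 counts in PM, at or below the floor in each sample, so no fold is given. PPP1R3D, a glycogen-targeting subunit of protein phosphatase 1 and the single paired member of 38 glycogen and glycolysis genes, gave log2FC 0.25 ± 0.16, FDR = 0.79. The lists of fatty acid oxidation, the citrate cycle and the respiratory chain had no paired member, and neither did the lists of muscle identity, muscle growth signalling, extracellular matrix, stress and early response genes, the circadian clock or the 8 lists of markers of other cell types. The labelled tissue could therefore be checked only through the contractile genes above, and the share of fat, vessel, nerve or connective tissue in the samples was not tested.

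Regulators of fibre type gave no call. EYA1, a transcriptional co-activator of the fast muscle programme (chr9:47588481-47960610), had 1, 3, 2 and 3 counts in LL and 7, 9, 4 and 16 counts in PM. The LL samples of EYA1 were at or below the floor and lay below the 4 PM samples, but the difference did not pass (log2FC -1.93 ± 0.26, FDR = 0.0555). The within-animal differences of EYA1, to which the SE belongs, averaged -1.32. SMYD2, a lysine methyltransferase (chr12:67363488-67418074), was at 34.8, 30.5, 30.6 and 29.5 CPM in LL and 16.7, 23.8, 25 and 22.3 CPM in PM (log2FC 0.51 ± 0.18, FDR = 0.14), with the LL samples above the PM samples. METTL21C, a methyltransferase of muscle (chr10:78272110-78285629), measured 18.8, 4.1, 2.39 and 2.86 CPM in LL and 3.12, 0.777, 3.3 and 0.857 CPM in PM (log2FC 1.67 ± 0.63, FDR = 0.35), where LL1 stood apart and the groups overlapped. In all 4 paired regulators of a list of 44 were tested, 0 were called, 2 had a negative and 2 a positive log2FC, and the median was -0.0184.

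The positional genes that could be paired were 2 of 52 HOX genes, which mark the place of a tissue along the body axis. HOXD8 (chr2:132873609-132877353) measured 11.8, 10.7, 19.5 and 14.1 CPM in LL and 4.24, 7.77, 11.3 and 7.99 CPM in PM (log2FC 0.83 ± 0.20, FDR = 0.0807). It was higher in LL in each animal, although PM3 exceeded LL2. HOXC10 (chr3:132378062-132383225) averaged 2.42 ± 0.769 CPM in LL and 2.57 ± 0.721 CPM in PM (log2FC -0.11 ± 0.30, FDR = 0.963). SIM2, a developmental transcription factor listed with EYA1 among 73 other positional and developmental genes, was near the floor in both muscles (log2FC 0.51 ± 0.37, FDR = 0.802).

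A pair of named genes with an FDR below 0.01 fell short of the fold-change threshold. KCNMA1, the pore-forming subunit of a calcium-activated potassium channel (chr25:32480589-33017828), measured 7.5, 8.37, 8.2 and 6.98 CPM in LL and 15.6, 16.5, 12.6 and 13 CPM in PM (log2FC -0.89 ± 0.09, FDR = 0.000773). CLIP4, a protein of the microtubule-binding CLIP family (chr3:35833574-35899190), measured 9.29, 9.26, 7.17 and 8.41 CPM in LL and 20.3, 16.8, 16.3 and 14.8 CPM in PM (log2FC -0.99 ± 0.09, FDR = 0.000645). Both were higher in PM without overlap and their within-animal differences had a small SE. KCNMA1 was the single paired member of 36 genes of calcium handling and ion channels. DLG2, a scaffold protein of synapses and the single paired member of 19 neuromuscular junction genes (chr21:10629346-11743008), averaged 1.13 ± 0.493 CPM in LL and 2.7 ± 0.168 CPM in PM and did not pass (log2FC -1.26 ± 0.25, FDR = 0.124). FREM2, a protein of basement membranes (chr10:23560959-23715430), averaged 2.7 ± 1.06 CPM in LL and 5.45 ± 1.71 CPM in PM (log2FC -1.03 ± 0.24, FDR = 0.049) and did not pass either.

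To see whether LL or PM departs from the other sampled muscles, each was compared with the mean of the 7 other muscles in the same fit. Against these 7 muscles 73 loci were called for LL (0.586%), 55 higher (0.441%) and 18 lower (0.144%), and 52 for PM (0.417%), 43 higher (0.345%) and 9 lower (0.0722%). The number for LL was 42 without animal 1. The 3 comparisons share samples, so their values are given side by side. Over the 46 loci higher in PM than in LL the median log2FC was 0.95 for PM against the 7 muscles and -0.77 for LL against them, and each of the 46 had PM above and LL below the 7. PM was the highest of the 9 muscles in 23 of the 46, against 8.88% of all tested loci, and LL was the lowest in 18, against 11.2%. Over the 12 loci higher in LL the corresponding medians were -0.20 for PM and 1.17 for LL, LL was the highest of 9 in 9 of the 12, against 10% of tested loci, and PM was the lowest in 2, against 8.76%. The choice of loci by LL against PM favours these positions, and the shares are descriptive.

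For most of the slow fibre genes the difference from the mean of the 7 muscles was larger for PM than for LL. For each gene of this paragraph that mean includes low levels in ST, the lowest of the 9 muscles by mean CPM. MYL3 averaged 2.84 CPM in ST and 40.3 in SM, the next lowest of the 7, and MYLK3 averaged 2.05 and 10.7. A low ST makes PM lie further above the mean and LL less far below it. The comparison was not made without ST, so its part in the larger PM difference was not tested. MYL3 gave a log2FC of 2.40 for PM against the 7 muscles (FDR = 2.42e-11) and -0.60 for LL (FDR = 0.175). TPM3 gave 1.70 for PM (FDR = 3.94e-09) and -0.64 for LL (FDR = 0.0638), and TNNI1 gave 1.55 for PM (FDR = 3.78e-05) and -0.40 for LL (FDR = 0.514). MYLK3, TNNC1, TNNT1, ATP2A2 and MYOM3 followed the same pattern, with 1.48, 1.44, 1.33, 1.26 and 1.33 for PM, each of them called, and -0.89, -0.61, -0.44, -0.54 and -0.77 for LL, none of them called. In MYL3, TPM3, MYLK3, TNNC1, TNNT1, TNNI1 and ATP2A2 PM was the highest of the 9 muscles by mean log2 CPM. LL was 7th of 9 for ATP2A2 and MYOZ2 and 8th for the other called slow fibre genes.

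The supraspinatus, a shoulder muscle, and the gluteobiceps were also high in most slow fibre genes, and the semitendinosus was low in MYL3 and the troponins. MYL3 averaged 185 ± 19.9 CPM in PM, 72.7 ± 12.1 in GB, 57.3 ± 29.7 in SS, 23.7 ± 7.03 in LL and 2.84 ± 2.00 in ST (SD, n = 4). SS did not stand out for MYL3, since AD averaged 67.1 ± 11.8 CPM and GM 53.7 ± 15.3. TNNC1 averaged 328 ± 83.8 CPM in PM, 272 ± 67 in SS, 213 ± 46.1 in GB, 79.2 ± 46.8 in LL and 28.5 ± 7.72 in ST. TNNI1 averaged 64.2 ± 9.00 CPM in PM, 59.8 ± 18.5 in SS, 34.2 ± 13.1 in GB, 16.6 ± 11.8 in LL and 5.59 ± 3.47 in ST. TPM3 averaged 141 ± 31.3 CPM in GB and 140 ± 44.5 in SS, and MYLK3 36.6 ± 3.98 in GB and 27.7 ± 8.15 in SS. In a direct comparison of PM with SS from the same fit, made after these levels were seen, 1 of the 10 loci formed by the 8 slow fibre genes and the MYL2 pair was called, against 0.907% of all tested loci. This was MYL3, which was higher in PM (log2FC PM minus SS 1.78 ± 0.44, FDR = 0.000275). The difference was 0.26 ± 0.14 in TNNC1 (FDR = 0.712), 0.15 ± 0.24 in TNNI1 (FDR = 0.864) and 0.06 ± 0.18 in ATP2A2 (FDR = 0.938). In 4 of the 10 the mean was higher in SS, namely MYOZ2 (53.9 ± 14.1 CPM in SS and 33.3 ± 18.3 in PM, FDR = 0.0698), MYOM3 (42.2 ± 15.4 and 31.7 ± 19.3, FDR = 0.528) and both loci of the MYL2 pair (FDR = 0.848 and 0.559). The 10 loci were chosen as higher in PM than in LL. Outside them, the second locus of the pair that covers MYL6 was lower in PM than in SS (log2FC PM minus SS -4.05 ± 0.24, FDR = 4.2e-10). The first was not called (0.16 ± 0.02, FDR = 0.59). METTL21C was also lower in PM (-5.27 ± 0.85, FDR = 3.78e-07). CASQ2, the MYBPC1 locus and the MYH7B loci had higher means in SS, none of them called.

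In other genes LL lay further than PM from the mean of the 7 muscles. EYA1 gave a log2FC of -2.29 for LL against the 7 muscles (FDR = 0.000552) and -0.36 for PM (FDR = 0.702), and LL was the lowest of the 9 muscles. By mean CPM SM was the next lowest for EYA1, at 0.658 ± 0.503 against 0.383 ± 0.158 in LL, while RF and SS were at 4.51 and 4.63. DLG2 gave -1.53 for LL (FDR = 0.00205) and -0.27 for PM (FDR = 0.754). ST was lower than LL for DLG2, at 1.06 ± 0.814 CPM against 1.13 ± 0.493. KCNMA1 gave -0.80 for LL (FDR = 0.000112) and 0.09 for PM (FDR = 0.837), with LL the lowest of 9, although it did not reach the fold-change threshold. In these 3 genes the log2FC of PM lay between -0.36 and 0.09, and none of the PM differences passed. At the upper end, HOXD8 gave 1.62 for LL (FDR = 6.78e-08) and 0.79 for PM (FDR = 0.0209), and CHI3L1, a secreted chitinase-like protein whose locus joins a pair of Ensembl genes (chr12:344371-366834), gave 1.23 for LL (FDR = 0.000188) and 0.32 for PM (FDR = 0.609). For both genes the mean of the 7 includes low levels in SS and RF. HOXD8 averaged 0.603 CPM in SS and 1.42 in RF, against 10.6 in ST and 14.0 in LL. CHI3L1 averaged 4.72 CPM in SS and 20.4 in RF, against 69.7 in SM and 72.9 in LL. LL was the highest of the 9 muscles for HOXD8, CHI3L1 and SMYD2, while none of these passed between LL and PM (CHI3L1 log2FC 0.91 ± 0.28, FDR = 0.165).

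Both muscles exceeded the mean of the 7 others at an unannotated locus near COL2A1, the gene of a cartilage collagen (chr3:138839190-138842956). It measured 4.11, 12.1, 10.6 and 2.22 CPM in LL and 1.11, 7.15, 4.75 and 1.57 CPM in PM (log2FC 1.01 ± 0.25, FDR = 0.185), with 2.71 for LL (FDR = 9.76e-09) and 1.70 for PM (FDR = 0.000962) against the 7. LL was the highest of the 9 muscles and PM the third, and animals 2 and 3 were higher than animals 1 and 4 in both. GM averaged 5.63 ± 4.11 CPM, above PM at 3.65 ± 2.84, while SS and RF were at 0.137 and 0.187. Together with this locus, 18 tested loci at listed positions that are not described by themselves had log2FC of -0.76 to 1.01 between LL and PM, with 0 called and a lowest FDR of 0.185.

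**Figure D3:**
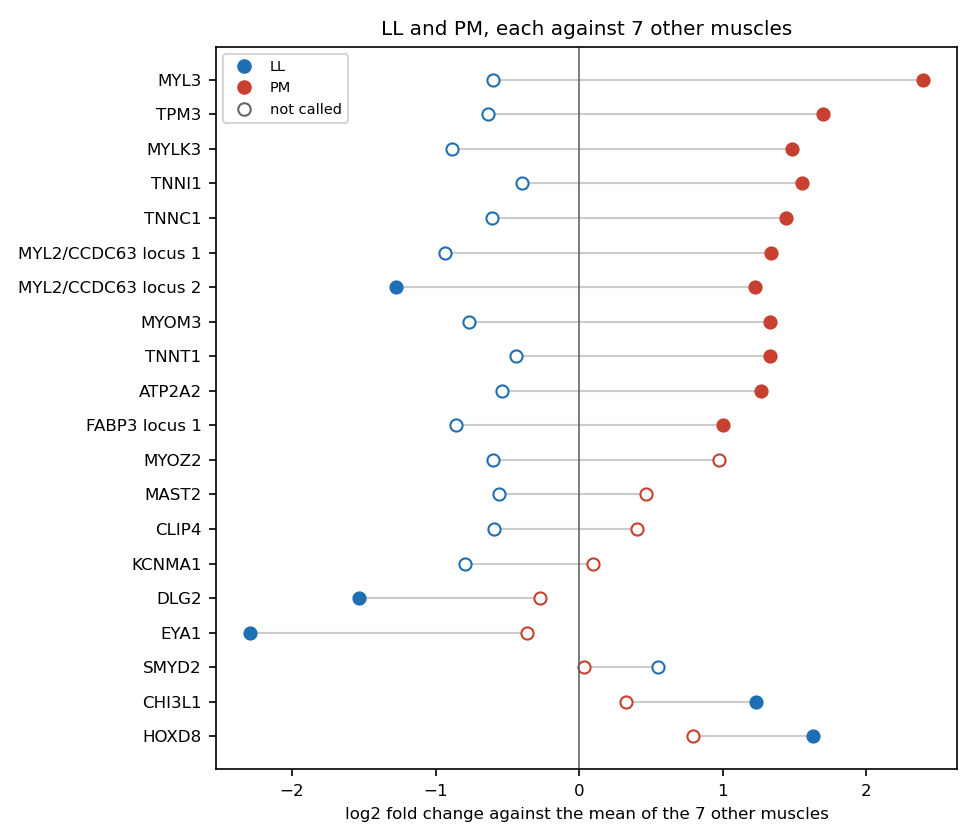
Log2 fold change of LL (blue) and of PM (red) against the mean of the 7 other muscles (x axis) for named loci (rows). Filled circles passed an FDR of 0.01 and an absolute log2FC of 1, open circles did not. PM lies to the right of 0 for the slow fibre genes, whereas for EYA1, DLG2 and KCNMA1 it is LL that lies furthest from 0.

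**Figure D4:**
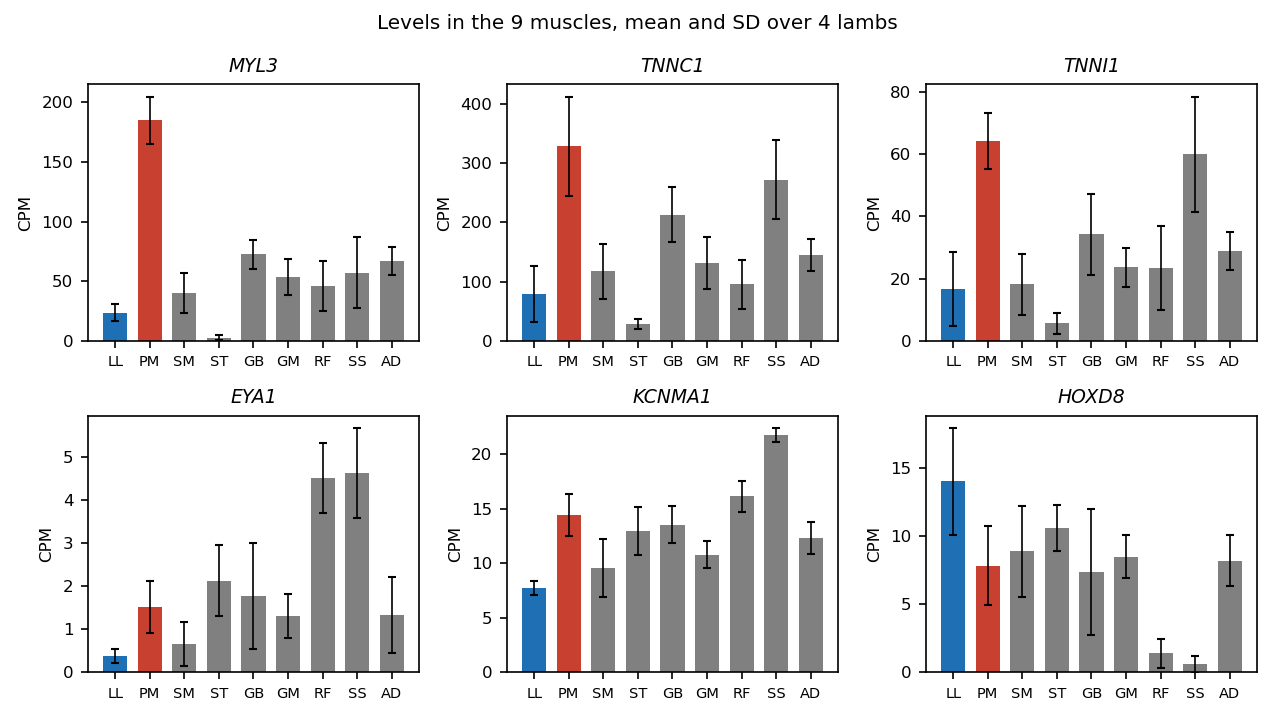
CPM (y axis, from 0) of MYL3, TNNC1, TNNI1, EYA1, KCNMA1 and HOXD8 in the 9 muscles (x axis), as mean (bars) and SD (lines) over 4 lambs, with LL in blue and PM in red. PM is the highest muscle for the 3 genes of the upper row, and LL is the lowest for EYA1 and KCNMA1 and the highest for HOXD8.

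The 12 loci higher in LL could not be paired with a name. The smallest p belonged to the Ensembl gene ENSOARG00000011146 (chr2:248314984-248351464), which measured 14.5, 25.1, 14.2 and 6.82 CPM in LL and 1.34, 0.932, 4.54 and 0.999 CPM in PM (log2FC 2.93 ± 0.58, FDR = 5.4e-06). LL was the highest of the 9 muscles for this locus, at a log2FC of 4.13 against the 7 others (FDR = 1.15e-14), and PM the next highest. The Ensembl gene ENSOARG00000017161 (chr6:29361947-29528208) measured 9.29, 10.5, 10.4 and 9.52 CPM in LL and 2.01, 2.49, 6.19 and 2.86 CPM in PM (log2FC 1.59 ± 0.30, FDR = 0.000119), with the 4 LL samples close together and PM3 above the other PM samples. PM was the lowest and LL the highest of the 9 muscles for it. Both loci were called in each fit that left out an animal.

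The most abundant of the loci higher in LL, at chr7:44019267-44048143, measured 1608, 1299, 2074 and 1426 CPM in LL and 584, 632, 1064 and 645 CPM in PM (log2FC 1.14 ± 0.11, FDR = 0.000773). The locus at chr12:77817796-77842494 measured 87, 341, 172 and 100.3 CPM in LL and 19.8, 45.8, 64.8 and 34.7 CPM in PM (log2FC 2.08 ± 0.34, FDR = 0.000793), and the locus at chr9:94346997-94490628 measured 79.7, 82.8, 90.4 and 85.8 CPM in LL and 31, 38.7, 53.9 and 36.3 CPM in PM (log2FC 1.08 ± 0.13, FDR = 0.00201). LL2 was far above the other LL samples in the former, whereas the LL samples of the latter were within a narrow range. These loci, and those at other positions below, are given as examples chosen after their values had been seen. The first lost its call without animal 1, 2 or 4 (FDR up to 0.0277), the second without animal 2 or 4 (FDR up to 0.0341) and the third without animal 2 or 4 (FDR up to 0.0801).

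For the locus at chr13:10638778-10695547 it was PM that was lowest of the 9 muscles. It measured 68.3, 193, 46.6 and 59.3 CPM in LL and 5.57, 21.3, 27.4 and 17.7 CPM in PM (log2FC 2.41 ± 0.64, FDR = 0.000773), and gave -1.46 for PM (FDR = 0.0183) and 0.95 for LL (FDR = 0.054) against the 7 muscles. An unannotated locus 329 bases beyond its end had 25, 52, 9 and 2 counts in LL and 1, 0, 1 and 1 in PM and was not called (FDR = 0.0333), and no fold is given because PM was below the floor. The single unannotated locus among the 12, on the scaffold JH922679.1 (positions 2013 to 2958), measured 7.33, 32.2, 15.4 and 11.9 CPM in LL and 1.78, 4.51, 6.19 and 3.85 CPM in PM (log2FC 2.01 ± 0.32, FDR = 0.00321). The remaining 5 were at chr15:39966160-40174168, chr6:39939556-40091549, chr10:85938162-85992859, chr19:5149353-5338962 and chr3:25879082-25903038, with log2FC of 2.10, 2.35, 1.37, 1.05 and 1.27. The locus on chromosome 13 lost its call without animal 1 (FDR = 0.0152) and the scaffold locus without animal 2, 3 or 4 (FDR up to 0.0758). Among the last 5, the one on chromosome 15 was called in each fit that left out an animal, those on chromosomes 6 and 10 in 2 of 4, the one on chromosome 19 in 1 and the one on chromosome 3 in 0.

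**Figure D5:**
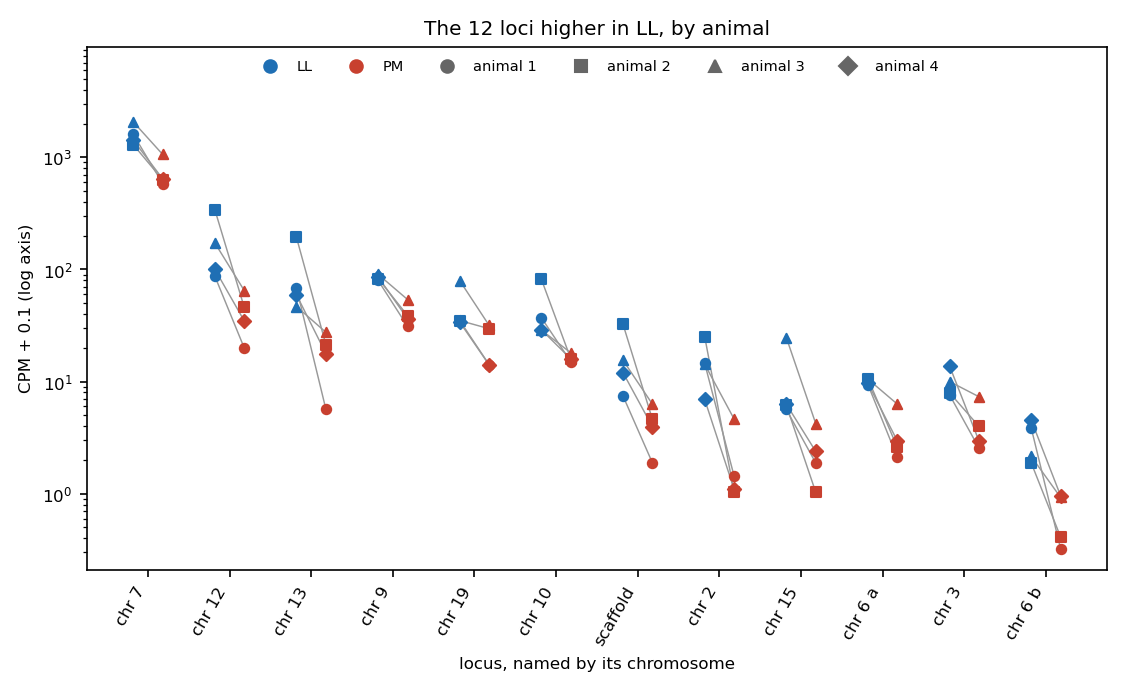
CPM plus 0.1 on a log axis for the 12 loci higher in LL, ordered by mean CPM in LL and named by chromosome. Blue symbols are LL, red symbols are PM, the shape gives the animal and a grey line joins the samples of 1 animal. The 4 LL samples lie above the 4 PM samples at each locus.

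Of the 46 loci higher in PM, 30 could not be paired with a name or listed position. The smallest p among them belonged to the Ensembl gene ENSOARG00000019772 (chr1:89444582-89477240), with 20.7, 8.37, 12.6 and 13.3 CPM in LL and 47.3, 26.7, 40.4 and 37.7 CPM in PM (log2FC -1.48 ± 0.11, FDR = 7.82e-07). The Ensembl gene ENSOARG00000019971 (chr8:19396081-19553431) measured 44.3, 33.3, 40.0 and 33.5 CPM in LL and 102, 85.5, 162 and 115 CPM in PM (log2FC -1.61 ± 0.19, FDR = 1.3e-06). PM was the highest of the 9 muscles for both, and LL was the lowest for the former. An annotated locus with the same coordinates as the latter had the opposite sign (log2FC 0.51, FDR = 0.166). The locus with the most counts, at chr7:21104083-21157369, measured 494, 1014, 627 and 192 CPM in LL and 2135, 2933, 1985 and 1922 CPM in PM (log2FC -1.97 ± 0.41, FDR = 0.000266). LL2 and LL4 of this locus were the highest and the lowest LL samples, the order also seen in the 3 troponin genes. The locus at chr2:52537459-52545262 measured 507, 796, 841 and 767 CPM in LL and 1556, 1782, 1612 and 1470 CPM in PM (log2FC -1.16 ± 0.16, FDR = 0.000773), and there LL was the lowest of the 9 muscles. The most negative log2FC, -3.37 ± 0.36 (FDR = 0.00101), was at chr6:79660810-79793106, on 0, 1, 1 and 2 counts in LL and 3, 21, 4 and 20 counts in PM. Each LL sample was below the floor there, so the size of this value depends on the small count added in the fit. The mean of the within-animal differences, to which the SE belongs, was -1.94. Of these last 3 loci, the first lost its call without animal 1 (FDR = 0.0122), the second without animal 1, 2 or 4 (FDR up to 0.0282) and the third without animal 2 or 4 (FDR up to 0.0614).

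Loci without an Ensembl gene made up 8 of the 58, or 13.8%, against 25.4% of the tested loci. Besides those at TPM3 and MYLK3 and on the scaffold, 1 lay on chromosome 1 between PLCH1 and MME (chr1:230473614-230478546) and measured 1.07, 7.3, 4.27 and 2.06 CPM in LL and 14.7, 14.5, 20.6 and 19.8 CPM in PM (log2FC -2.24 ± 0.55, FDR = 0.00123). The other 4 lay within a short stretch of chromosome 16, where 7 unannotated loci were tested and each had a negative log2FC. The first of them (chr16:19691070-19694451) had 3, 5, 9 and 1 counts in LL and 11, 18, 39 and 28 counts in PM (log2FC -2.45 ± 0.38, FDR = 0.000635). The next (chr16:19699545-19701757) had 2, 2, 6 and 1 counts in LL and 8, 16, 24 and 19 counts in PM (log2FC -2.63 ± 0.21, FDR = 0.00131). The third (chr16:19714012-19715596) had 2, 1, 4 and 0 counts in LL and 6, 15, 13 and 14 counts in PM (log2FC -2.75 ± 0.34, FDR = 0.00321), and the last (chr16:19769562-19905869) had 3, 8, 6 and 0 and 17, 19, 24 and 23 (log2FC -2.35 ± 0.51, FDR = 0.00201). No LL sample reached 10 counts at any of the 4, and the PM samples lay above the LL samples at each. The within-animal differences, to which the SE belongs, averaged -2.06, -2.03, -1.97 and -2.11 at the 4 loci, in the order given. The 3 loci of the stretch that did not pass had log2FC of -2.05, -1.79 and -1.71 and a lowest FDR of 0.171. Each of the 4 called loci of the stretch lost its call in at least 1 of the fits that left out an animal (FDR up to 0.0708), as did the locus between PLCH1 and MME (FDR = 0.041 without animal 3 and 0.0665 without animal 4).

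Unannotated loci beside called loci shared their direction. Within 5000 bases of a called locus, or overlapping it, 27 tested unannotated loci were found, and 27 had the same direction of log2FC as the called locus, although 2 of them were called. Among 17 annotated neighbours 10 had the same direction and 4 were called. Reads of overlapping loci may not be separable without the strand setting. Many of the 27 share the span of a single called locus, as at MYLK3 and at chr19:5149353-5338962, so they are not separate cases. Over all tested loci the direction was shared by 61.7% of 1975 neighbouring pairs of an annotated and an unannotated locus and by 53.2% of 2394 pairs of annotated loci. These pairs were not selected for a large log2FC. They also leave out pairs in which neither locus is annotated, which occur among the 27. At chr20:49693089-49762526 a called locus measured 1.07, 2.14, 0.854 and 0.952 CPM in LL and 8.92, 6.37, 3.51 and 4.00 CPM in PM (log2FC -2.22 ± 0.28, FDR = 0.00754), and 79 bases beyond its end lay an unannotated locus that the study assigned to MYLK4, another myosin light chain kinase (log2FC -2.17 ± 0.34, FDR = 0.126). The unannotated locus held 4, 1, 0 and 1 counts in LL and 6, 9, 6 and 5 counts in PM, and its within-animal differences, to which the SE belongs, averaged -1.41. LL was below the mean of the 7 muscles at both loci, by -2.16 (FDR = 0.00104) and -2.22 (FDR = 0.0268, not called), while PM differed from this mean by 0.07 and -0.05. SM was lower than LL at both, with 1.10 and 0.125 CPM against 1.25 and 0.263, and ST was at 31.9 and 7.32 CPM. The called locus missed the threshold between LL and PM without animal 1 (FDR = 0.183) or animal 4 (FDR = 0.0761).

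The animals were ordered by level within each muscle, without use of the within-animal differences. Over the 16 called loci at listed positions, LL2 was the highest LL sample in 9 and LL4 the lowest in 11, while LL4 was the highest in 0. Among the PM samples PM3 was the highest in 7 and PM1 the lowest in 7. These 16 loci are not independent of each other, and the order is given as a description.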

How the data were processed

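RNA-Seq counts of 36 samples were used, 9 muscles from each of 4 lambs, of which 4 LL and 4 PM samples are described here. The authors sequenced total RNA in paired-end libraries on an Illumina HiSeq instrument and, per the labels and the submitters' processing notes, aligned reads to Oar_v3.1 with TopHat2 2.0.13, assembled transcripts with Cufflinks 2.2.1 and counted reads with HTSeq. The deposited values are whole-number counts per locus without normalization. The strand setting of the counting is not given in the sources used here. Each table lists 31530 entries for 31136 loci, and 394 repeated entries were removed.

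The analysis ran in R 4.3.3 with edgeR 4.0.16 and, for an alternative, DESeq2 1.42.0. The function filterByExpr with muscle as group retained 12461 loci, and TMM factors scaled the libraries. All 36 samples entered a negative binomial fit on muscle plus animal, with 24 residual degrees of freedom and a common biological coefficient of variation of 0.195. LL was compared with PM by the quasi-likelihood test with Benjamini-Hochberg adjustment over all tested loci, and a locus was called where FDR did not exceed 0.01 and log2FC was beyond 1 in either direction. LL and PM were each compared with the mean of the 7 other muscles in the same way. CPM refers to the TMM-normalized library size, and the SE of a log2FC comes from the 4 within-animal differences of log2 CPM at a prior count of 2. These differences are compressed at low counts, where the SE belongs to a smaller mean difference than the log2FC printed beside it. The model was tested on simulated data before use.

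Samples were paired because the labels give the same animal number to both muscles of a lamb. Deviations from the muscle means correlated at 0.216 to 0.39 between LL and PM of the same animal and at -0.334 to 0.107 between different animals. The deviations of a muscle sum to 0, so positive values within animals lower those between animals by construction. The counts of any pair of LL or of PM samples differed beyond counting noise (chi-square over degrees of freedom of 5.86 to 34.7), so none was treated as a repeated library.

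The tables hold Ensembl identifiers without symbols, and the reference table at hand holds no Ensembl identifiers and another assembly, so names came from positions that the study lists for Oar_v3.1. This departs from the planned matching by symbol. In this way 55 loci were placed, 54 of them tested, and 32 names were given to a single locus. A name was withheld where several annotated loci share the span that covers the listed position. Starts in the tables count from 0 and are given here from 1. Of 24 gene lists, 16 had no paired member. The comparison, gene lists and names were chosen with earlier results of these data known. The named genes are, by rule, the 10 called genes with the smallest p in each direction that have a symbol and the same sign in 4 animals (10 were higher in PM and 0 in LL), the 3 called loci without an Ensembl gene with the smallest p in each direction, called list members and the most abundant tested members of 6 lists. Other loci named were chosen after their values were seen. Alternatives were the likelihood ratio test, a fit to the 8 samples alone, a fit without animal, DESeq2, RLE size factors, loci with an Ensembl gene only, no filter, at least 10 counts in each of the 8 samples, an FDR of 0.05 and each animal left out in turn. No genome sequence was used, and Gene Ontology terms and qRT-PCR values were not analysed here. The values of 1 tested gene of the fibre type regulator list are not reported here.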

Additional observations from a re-analysis of the deposited data

Results flagged for a closer look

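In 13 of 192 groups of 4 samples, from 96 loci in LL and in PM, 1 sample lay far from the other 3, with a gap to the nearest of them that filled most of the range of the group (Dixon's test). Chance flags about 1 in 20 such groups, and no explanation was tested. Of the 13, 9 (69.2%) were at loci differentially expressed between LL and PM, which made up 60.4% of the 96 loci.

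For MYOM3 the sample PM1 was at 60.4 CPM and the other PM samples at 19.4 to 25.3. For METTL21C the sample LL1 was at 18.8 CPM and the other LL samples at 2.39 to 4.1, and for RIMS2 the sample LL2 was at 1.43 CPM and the others at 6.66 to 7.5. For TACC2 the sample PM1 was at 83.4 CPM against 41.7 to 48.3, and for the second locus of the pair that covers MYL6 the sample PM4 was at 2.71 CPM against 4.82 to 5.16.

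Most of the loci higher in LL that were set apart had 1 high LL sample. LL3 was at 24.6 CPM against 5.54 to 6.19 at chr15:39966160-40174168 and at 79.3 CPM against 33.8 to 34.9 at chr19:5149353-5338962. LL2 was at 193 CPM against 46.6 to 68.3 at chr13:10638778-10695547 and at 81.6 CPM against 28.7 to 37 at chr10:85938162-85992859. Also among the loci higher in LL, PM3 was at 4.54 CPM against 0.932 to 1.34 at chr2:248314984-248351464 and at 1064 CPM against 584 to 645 at chr7:44019267-44048143. Among the loci higher in PM, LL3 was at 30.1 CPM and the next LL sample at 21.6 at chr2:45650051-45676108, and LL2 was at 2.14 CPM against 0.854 to 1.07 at chr20:49693089-49762526.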

How the results depend on the processing

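Between LL and PM the 58 loci kept their direction under each alternative that tested them. The fit without animal, which drops the pairing of samples by lamb, called 27 loci (6 higher in LL, 21 higher in PM), all of them among the 58, with 30 for LL and 22 for PM against the 7 muscles and 5 slow fibre genes. No filter on low counts gave 120 loci, 53 of them higher in LL, and 1 fibre type regulator. At least 10 counts in each of the 8 samples gave 36 loci (7 and 29) from 6624 tested. An FDR of at most 0.05 gave 127 loci at any fold change (46 and 81), and 22 higher in LL above the fold-change threshold. The likelihood ratio test called 19 loci higher in LL and 82 for PM against the 7 muscles. Restricting to loci with an Ensembl gene left 34 for LL and 34 for PM against the 7 muscles. DESeq2 called 59 loci and kept 57 of the 58, RLE size factors called 59 and kept 58, and the 8 samples alone called 44 and kept 41.

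When 1 animal was removed from the fit the number called was 26 to 45 (4 to 11 higher in LL and 22 to 35 higher in PM), with 42 to 105 for LL and 36 to 45 for PM against the 7 muscles and 5 to 8 slow fibre genes. The same fits turned the sign of uncalled loci near 0. Their log2FC ran from -0.36 to 0.12 for HOXC10, from -0.11 to 0.21 for the first locus of the pair that covers SLC16A3, and from -0.0381 to 0.155 and -0.0298 to 0.214 for a pair of unannotated loci at RORA. MYL3, TPM3, MYLK3, ATP2A2, TNNC1 and both loci of the MYL2 pair were called in each of the 12 other fits, and the largest FDR among these was 0.00814. The causes of the differing counts were not tested. Depth limits the loci with few counts: 36 of the 58 had at least 10 counts in each of the 8 samples, and 8 had under 3 in at least 1 sample.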

Other observations

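The position that the study lists for a transcript of ESRRG, a nuclear receptor of oxidative metabolism, falls within a much longer span that 51 tested loci share in the tables (chr12:18028459-18720283), and 0 were called between LL and PM. The summed level of the 51 loci was 1257 CPM in LL1 and 169, 187 and 132 CPM in LL2 to LL4, and it was 545 CPM in PM1 and 106, 137 and 120 CPM in PM2 to PM4. Animal 1 had the highest value among the LL samples at 49 of the 51 loci and among the PM samples at 49. Over the 9 muscles the median of the summed level was 706 CPM in animal 1, 222 in animal 2, 188 in animal 3 and 166 in animal 4. Over the 4 animals the mean was 77.1 CPM in ST, the lowest of the 9 muscles, 227 in PM and 436 in LL, the highest. The rank of LL rests on LL1. In animals 2 to 4 LL lay below GM (354, 347 and 250 CPM) and SS (289, 354 and 250 CPM). Loci that share this span may share reads.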
